A study of Mus musculus with 15 samples.

Results

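The amino acid and endoplasmic reticulum (ER) stress response genes examined here were Atf4, Ddit3, Trib3, Chac1, Asns, Phgdh, Psat1, Sesn2, Ddit4 and Hspa5. They were taken as a set of 10 named genes, found on the array through the RefSeq accessions of its probes, and all 10 were measured, among 16055 genes tested and 20659 genes named on the array. The series profiled whole-kidney RNA from male C57/BJ mice on 1-colour Agilent arrays. At 6 weeks of age the mice lost the left kidney (uninephrectomy) or were sham-operated, and they were then kept for 20 weeks on a low-fat chow diet or a high-fat diet. The 4 groups were low-fat sham (4 arrays), low-fat with 1 kidney (4 arrays), high-fat sham (3 arrays) and high-fat with 1 kidney (4 arrays), each array being a different mouse out of 6 mice per group. Strain, sex and age were the same in all groups, and the comparisons asked what the diet did in mice with both kidneys or 1 kidney, and what the loss of a kidney did on each diet. The source was the whole frozen organ, which pools all renal cell types.

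When amino acids run short or misfolded protein builds up in the ER, kinases phosphorylate the translation factor eIF2, general protein synthesis slows, and the messenger RNA of the transcription factor ATF4 is translated more. ATF4 then switches on genes for amino acid synthesis, transport and tRNA charging, and, with DDIT3 (CHOP), genes of cell death under lasting stress, while a separate branch of the ER response raises chaperones such as HSPA5 (BiP). In the kidney these genes are known for their response to tubular injury, protein overload and lipid excess. Because ATF4 is controlled largely in translation, the level of its messenger RNA is a limited measure of its activity.

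The promoters of the enzyme that gave the main result and of a stress enzyme and the ER chaperone that carry response elements are shown here, since these elements are the textbook route from the stress signal to these genes. The sequences come from RefSeq (GRCm38.p6), are the 250 bases before the start of transcription, run 5′ to 3′ on the gene's strand, and carry the matched element in capitals. They lie at chr6:7693210-7693459 on the minus strand for Asns, at chr2:119350992-119351241 on the plus strand for Chac1, and at chr2:34771840-34772089 on the plus strand for Hspa5.
Asns promoter: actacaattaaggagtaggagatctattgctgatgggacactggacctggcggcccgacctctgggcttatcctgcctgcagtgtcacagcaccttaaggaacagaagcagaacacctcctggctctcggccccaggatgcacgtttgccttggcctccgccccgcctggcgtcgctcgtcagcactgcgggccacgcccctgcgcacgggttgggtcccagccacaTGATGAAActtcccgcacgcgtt
Chac1 promoter: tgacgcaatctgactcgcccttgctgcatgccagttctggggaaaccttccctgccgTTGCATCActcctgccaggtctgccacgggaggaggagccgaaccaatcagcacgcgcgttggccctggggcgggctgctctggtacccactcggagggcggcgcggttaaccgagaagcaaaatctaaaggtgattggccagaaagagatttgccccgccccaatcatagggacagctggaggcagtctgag
Hspa5 promoter: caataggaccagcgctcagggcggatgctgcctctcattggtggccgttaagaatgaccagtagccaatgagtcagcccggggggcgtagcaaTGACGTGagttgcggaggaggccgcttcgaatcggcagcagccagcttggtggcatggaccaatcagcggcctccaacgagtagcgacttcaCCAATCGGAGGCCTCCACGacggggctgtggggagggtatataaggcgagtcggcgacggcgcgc
The capitals in the Asns and Chac1 sequences are the C/EBP-ATF response element, searched as TGATGNAA on both strands in windows of 300 bases that also hold 50 bases after the start. In Asns it read TGATGAAA at -23 to -16 from the start, and in Chac1 it lay on the opposite strand, so that the printed strand reads TTGCATCA at -193 to -186. The element was present in 3.97% of all 32851 promoter windows of the table. Trib3 also held it, on the opposite strand at 14 to 21 bases after the start. The Hspa5 sequence held the ER stress response element (CCAAT, then 9 bases, then CCACG) at -65 to -47, found in 0.119% of windows, and the unfolded protein response core TGACGTG at -157 to -151, found in 2.01%. All 10 genes matched a window, Psat1 with 2 of them, and 6 genes held none of these letters in it. A match describes the letters in the window and not a site in use.

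Levels are given as normalised log2 levels, the log2 of an array's processed signal minus that array's 75th percentile, so that 0 is the level of a probe at the 75th percentile and a difference of 1 is a 2-fold difference. Levels of different genes come from different probes and were not compared with each other. Each gene was read from its brightest probe. All 13 probes of the 10 genes were well above background on all 15 arrays. Differences were tested with limma over all 16055 genes, with a pass set at an adjusted p (Benjamini-Hochberg) under 0.05. Intervals are at the 95% level.

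The arrays lay on 4 slides, and this bears on every result below. All high-fat arrays were scanned on 1 day and all low-fat arrays on another, so diet and scan day cannot be told apart. On the low-fat diet, each surgical group had a slide of its own, so surgery and slide cannot be told apart there. The high-fat arrays were spread over a slide with 1 sham and 2 1-kidney arrays (slide 1) and a slide with 2 of each (slide 2). The share of spots well above background was 60.5% to 65.6% on low-fat arrays and 65.7% to 73.4% on high-fat arrays. All 10 kidney markers examined (among them Slc34a1, Umod, Aqp2 and Nphs1) were well above background on every array. The log2 of their summed linear levels, in which the brightest markers weigh most, was 8.56 to 8.97.

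Asns was the gene of the set that fell with the high-fat diet. Asparagine synthetase makes asparagine from aspartate and glutamine, and its gene is a classic target of ATF4. In low-fat sham mice its log2 levels were -0.21, 0.24, -0.05 and -0.47. In high-fat sham mice they were -1.60, -1.26 and -0.85. All 3 high-fat levels lay below all 4 low-fat levels. The difference was -1.11 on the log2 scale (SE 0.23), a 2.16-fold lower level (95% interval 1.54 to 3.03), with a limma adjusted p of 0.00781 by Benjamini-Hochberg.

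Among mice with 1 kidney, Asns was again lower on the high-fat diet. The low-fat levels were -0.45, -0.74, -0.75 and -0.38, and the high-fat levels were -1.57, -1.59, -0.84 and -1.48. The groups did not overlap, though the highest high-fat array (-0.84) was close to the lowest low-fat array (-0.75). The difference was -0.79 (SE 0.21), a 1.73-fold lower level (95% interval 1.26 to 2.36), with a limma adjusted p of 0.0246. Over both surgeries, Asns averaged -0.35 ± 0.34 (SD, n = 8) on the low-fat diet and -1.31 ± 0.34 (SD, n = 7) on the high-fat diet. In whole-organ RNA, fewer cells that express a gene and less of its RNA per cell cannot be told apart.

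With slide as a fixed block within the high-fat groups, the Asns difference passed in both diet comparisons (limma adjusted p 0.00145 and 0.00714). That block adjusts neither low-fat slides nor scan day. The Asns difference in sham mice had an adjusted p of 0.143 when slide was taken as a random block in limma, and that in mice with 1 kidney an adjusted p of 0.323. Within the diet comparison in mice with 1 kidney, the call was also lost (adjusted p 0.0551 to 0.0747) without low-fat array 1 or 4 or high-fat array 1, 2 or 4, with normexp background correction (difference -0.70, adjusted p 0.0816), and without the slide 1 arrays (difference -0.57, adjusted p 0.126), while its direction was the same in each.

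The plot of the 10 genes by group shows each array with its slide.

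**Figure D1:**
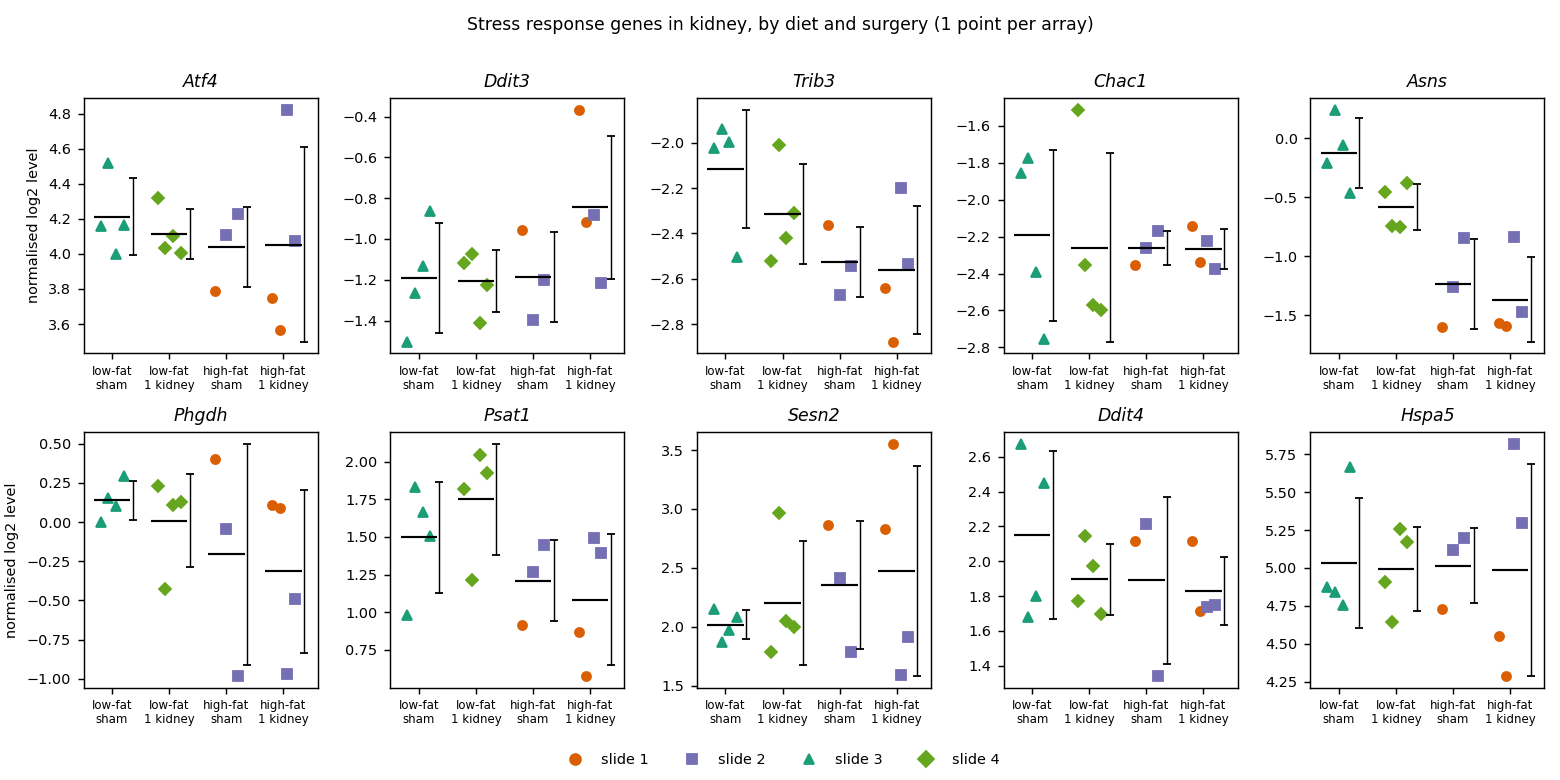
Normalised log2 level (y axis, 0 at each array's 75th percentile) of the 10 genes in the 4 groups (x axis), with 1 point per array, colour and shape for the slide, a horizontal bar for the group mean and a vertical line for 1 SD either side. Asns lies lower in both high-fat groups, at means of -1.24 and -1.37 against -0.12 and -0.58, while the other 9 genes overlap between the diets.

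Asns was 1 of 10 genes that passed as lower in sham mice, where 7.41% of all genes tested passed as lower, and 1 of 10 in mice with 1 kidney, where 6.52% of all genes did. No gene of the set passed as higher, against 6.48% and 7.67% of all genes. The number that passed was thus near that of the array as a whole. By the brightest probes, Asns was also the only one with no overlap between diets. In the lower direction this held for 15.2% of all genes in sham mice and 11.1% in mice with 1 kidney, and in the higher direction for 11% and 11.4%. It passed as lower in both comparisons, as did 4.14% of all genes. The median log2 difference of the 10 genes was -0.22 in sham mice and -0.06 in mice with 1 kidney, beside -0.02 and -0.01 over all genes. In sham mice 8 of the 10 differences lay below 0, of which that of Hspa5 (-0.02) turned above 0 under each of the 4 other background corrections and scalings, and Ddit3, just above 0, turned below it with normexp and with quantile normalization. In mice with 1 kidney 8 of 10 again lay below 0, of which Atf4 turned with normexp, Chac1 with the percentile over probes detected on all arrays, and Hspa5 with that percentile and with cyclic loess.

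The other enzymes of amino acid synthesis in the set are those of serine. PHGDH catalyses the first committed step from glycolysis to serine, and PSAT1 the transamination that follows. Psat1 had log2 levels of 0.98, 1.83, 1.67 and 1.51 in low-fat sham mice and of 0.92, 1.26 and 1.44 in high-fat sham mice. The groups overlapped, and the difference of -0.29 (SE 0.27) did not pass (limma adjusted p 0.504). With 1 kidney the levels were 1.82, 1.21, 2.04 and 1.92 on the low-fat diet and 0.87, 0.58, 1.49 and 1.39 on the high-fat diet. Here 3 of the 4 low-fat arrays lay above all high-fat arrays, and low-fat array 2 lay among them. The difference was -0.67 (SE 0.25, 95% interval -1.20 to -0.14) and did not pass (limma adjusted p 0.0862). It passed with slide as a fixed block within the high-fat groups (limma adjusted p 0.0279), which adjusts neither low-fat slides nor scan day. It also passed with the mean of the gene's probes (-0.72, adjusted p 0.0308), and without low-fat array 2 (-0.85, adjusted p 0.0452) or high-fat array 3 (-0.80, adjusted p 0.0431). It did not pass when slide was a random block (limma adjusted p 0.476), and it was -0.31 (adjusted p 0.458) without the slide 1 arrays and -1.03 (adjusted p 0.0126) without the slide 2 arrays.

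Psat1 had a further, dimmer probe (A_66_P121495), which gave -0.87 (adjusted p 0.0542) in sham mice and -0.78 (adjusted p 0.0623) in mice with 1 kidney by the same limma fit. Both probes thus lay below 0 in both comparisons, without passing. Phgdh ranged from -0.43 to 0.29 with a median of 0.12 over the 8 low-fat arrays. Over the 7 high-fat arrays it ranged from -0.98 to 0.40 with a median of -0.04. The diets overlapped, and the high-fat arrays spread more widely, with an SD of 0.55 against 0.22. The differences of -0.35 (SE 0.31) in sham mice and -0.32 (SE 0.29) in mice with 1 kidney did not pass (limma adjusted p 0.49 and 0.483). Its further probe (A_55_P2046262) gave -0.62 in both comparisons by the same limma fit (adjusted p 0.0934 and 0.075). By this probe the sham groups did not overlap, at -0.97 to -0.04 on the high-fat diet and 0.06 to 0.42 on the low-fat diet. In sham mice 15.2% of all genes lay lower without overlap by their brightest probes. The groups with 1 kidney overlapped by this probe.

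The transcription factors and the cofactor did not pass in any comparison. Atf4 had log2 levels of 4.16, 4.52, 4.00 and 4.17 in low-fat sham mice, and of 3.79, 4.11 and 4.23 in high-fat sham mice. With 1 kidney it had levels of 4.32, 4.03, 4.10 and 4.00 on the low-fat diet, and of 3.75, 3.57, 4.82 and 4.07 on the high-fat diet. The highest and the lowest of all 15 levels both came from high-fat mice with 1 kidney, and both diets overlapped. The differences were -0.17 (SE 0.24, 95% interval -0.69 to 0.35) in sham mice and -0.06 (SE 0.22, 95% interval -0.54 to 0.42) in mice with 1 kidney. The further probe of Atf4 (A_51_P464238) gave -0.37 and -0.17, with limma adjusted p of 0.325 and 0.651.

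Ddit3 encodes CHOP, a transcription factor that ATF4 induces and that promotes apoptosis under lasting ER stress. In sham mice its mean was -1.19 ± 0.27 (SD, n = 4) on the low-fat diet and -1.18 ± 0.22 (SD, n = 3) on the high-fat diet, a difference of 0.01 (95% interval -0.42 to 0.43). With 1 kidney the low-fat levels were -1.12, -1.07, -1.41 and -1.22, and the high-fat levels were -0.36, -0.92, -0.88 and -1.21. Of the high-fat arrays, 3 lay above all low-fat arrays. The difference of 0.36 (SE 0.18, 95% interval -0.03 to 0.75) did not pass (limma adjusted p 0.205).

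Trib3 encodes a pseudokinase that ATF4 and CHOP induce and that restrains ATF4 in turn. Its log2 levels were -2.02, -1.94, -1.995 and -2.50 in low-fat sham mice and -2.36, -2.67 and -2.54 in high-fat sham mice. Low-fat array 4 was as low as the high-fat arrays and apart from the other low-fat ones. The difference of -0.41 (SE 0.18) had an unadjusted p of 0.0434 and a limma adjusted p of 0.151, where 30.2% of all genes had an unadjusted p under 0.05 and 2 of the 10 did (Asns and Trib3). In mice with 1 kidney 29.7% of all genes did, and again 2 of the 10 (Asns and Psat1). The Trib3 difference there was -0.25 (SE 0.17, limma adjusted p 0.358).

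Chac1 encodes an enzyme that degrades glutathione and is a target of the ATF4 and CHOP pathway. Over the 8 low-fat arrays it ranged from -2.75 to -1.51 with a median of -2.37, and over the 7 high-fat arrays from -2.37 to -2.14 with a median of -2.26. The low-fat arrays thus spread on either side of the high-fat ones, with an SD of 0.45 against 0.09. The differences were -0.07 (95% interval -0.63 to 0.50) in sham mice and -0.01 (95% interval -0.53 to 0.51) in mice with 1 kidney. The C/EBP-ATF element printed above for Asns was thus present in the Chac1 window as well, without a difference between diets that passed.

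Sesn2 and Ddit4 (REDD1) encode stress-induced inhibitors of mTORC1, the kinase complex that drives growth when amino acids are ample. Sesn2 had log2 levels of 2.15, 1.87, 1.97 and 2.09 in low-fat sham mice and of 2.87, 2.41 and 1.79 in high-fat sham mice. With 1 kidney the levels were 1.79, 2.97, 2.05 and 2.00 on the low-fat diet and 2.83, 3.55, 1.60 and 1.92 on the high-fat diet. High-fat arrays held both the highest and the lowest levels, and the diets overlapped. The differences of 0.34 (SE 0.41) and 0.27 (SE 0.38) did not pass (limma adjusted p 0.625 and 0.667). Ddit4 ranged from 1.68 to 2.68 on the low-fat diet and from 1.34 to 2.21 on the high-fat diet. Its differences were -0.26 (95% interval -0.81 to 0.29) in sham mice and -0.07 (95% interval -0.58 to 0.44) in mice with 1 kidney.

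Hspa5 encodes BiP, the main chaperone of the ER lumen and the sensor that holds the unfolded protein response in check. Its log2 levels were 4.87, 4.84, 4.75 and 5.67 in low-fat sham mice, and 4.73, 5.12 and 5.20 in high-fat sham mice. With 1 kidney they were 4.91, 4.64, 5.26 and 5.17 on the low-fat diet, and 4.55, 4.29, 5.82 and 5.30 on the high-fat diet. The 4 group means lay between 4.99 and 5.03, while single arrays of high-fat mice with 1 kidney differed by more than 1 unit. The differences between diets were -0.02 (95% interval -0.72 to 0.68) and -0.01 (95% interval -0.65 to 0.64), intervals that leave room for changes of up to 1.64-fold and 1.57-fold.

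**Figure D2:**
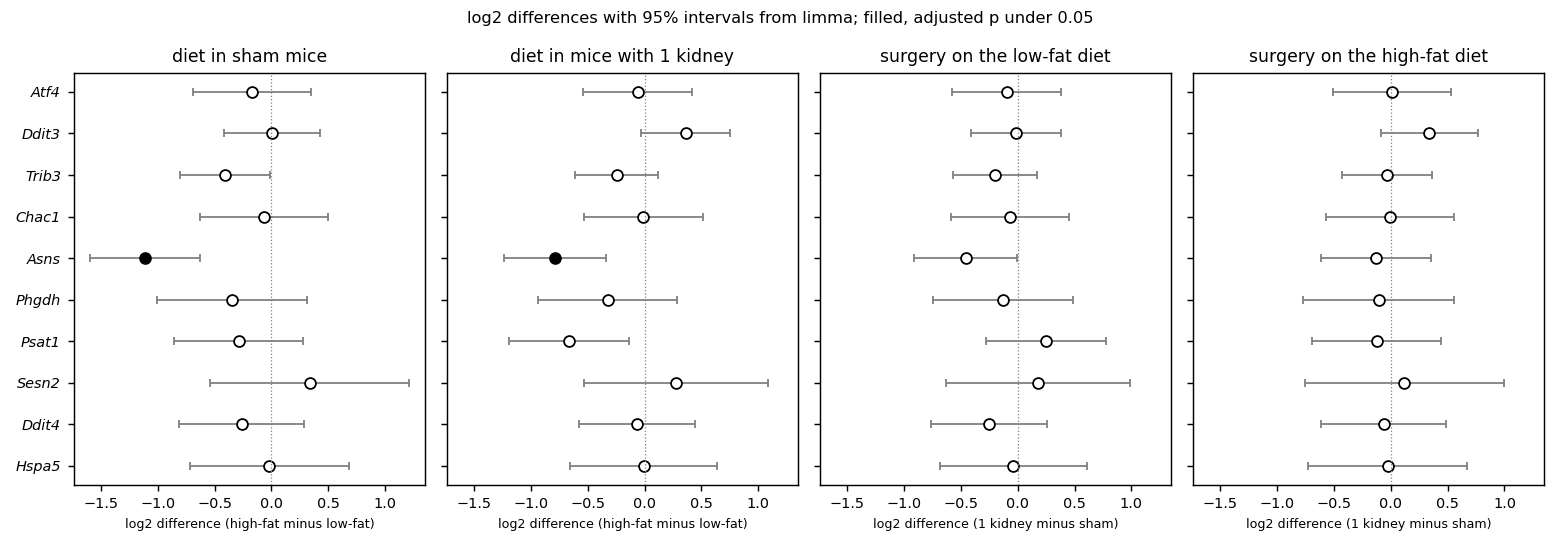
Log2 differences (x axis) of the 10 genes (y axis) in the 4 comparisons between groups, as points with 95% intervals from limma. Filled points passed at an adjusted p under 0.05. Asns was lower on the high-fat diet by -1.11 in sham mice and -0.79 in mice with 1 kidney, and no gene passed between surgeries.

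Loss of a kidney changed no gene of the set past the threshold on either diet. On the low-fat diet 0 of 10 passed, with a lowest limma adjusted p of 1.00, where 0.00623% of all genes (1 gene) passed and 519 genes (3.23%) had an unadjusted p under 0.05. Asns was the gene of the set with an unadjusted p under 0.05, at -0.46 (SE 0.21, unadjusted p 0.0463, adjusted p 1.00), lower in mice with 1 kidney, and its groups overlapped between -0.47 and -0.38. On the high-fat diet 0 of 10 passed, with a lowest limma adjusted p of 0.999, where 0% of all genes passed and 747 genes (4.65%) had an unadjusted p under 0.05. The widest difference there was that of Ddit3, at 0.34 (SE 0.20, 95% interval -0.08 to 0.76). The groups of every gene of the set overlapped in both surgery comparisons, where on the low-fat diet 2.58% of all genes lay higher and 1.98% lower without overlap, and on the high-fat diet 1.72% and 1.2%.

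Within the high-fat slides, the difference between mice with 1 kidney and sham mice could be taken on each slide as a value with no test. For Ddit3 it was 0.31 on slide 1 and 0.25 on slide 2, the same direction on both. For Atf4 (-0.13 and 0.28), Trib3 (-0.40 and 0.24), Chac1 (0.12 and -0.08), Asns (0.02 and -0.10), Psat1 (-0.19 and 0.09), Sesn2 (0.33 and -0.34) and Hspa5 (-0.31 and 0.40) the direction differed between slides. For Phgdh (-0.30 and -0.22) and Ddit4 (-0.20 and -0.03) both slides lay below 0.

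The interaction, which asks whether the diet difference was different in mice with 1 kidney, passed for 0 of 10 genes and for 0% of all genes with limma, where 219 genes (1.36%) had an unadjusted p under 0.05. For Asns it was 0.33 (SE 0.31, adjusted p 1.00), so the smaller diet difference in mice with 1 kidney was not shown to differ from that in sham mice. The largest in size were those of Psat1 (-0.38, SE 0.36) and Ddit3 (0.36, SE 0.27), neither of which passed.

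The slides on which the high-fat arrays lay differed from each other in many of these genes. In a comparison added after the data were seen, with group and slide in 1 limma fit, 4 of the 10 genes passed between slide 1 and slide 2, where 31% of all genes did. On slide 1 Sesn2 was higher, at 2.83 to 3.55 against 1.60 to 2.41 on slide 2, a difference of 1.17 (SE 0.28, adjusted p 0.00819). Phgdh was higher as well, at 0.09 to 0.40 against -0.98 to -0.04, a difference of 0.86 (SE 0.21, adjusted p 0.00961). Sesn2 and Phgdh did not overlap between the slides.

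Lower on slide 1 were Atf4, at 3.57 to 3.79 against 4.07 to 4.82, a difference of -0.63 (SE 0.18, limma adjusted p 0.0194), and Hspa5, at 4.29 to 4.73 against 5.12 to 5.82, a difference of -0.85 (SE 0.24, limma adjusted p 0.0191). Asns (-0.48, adjusted p 0.0777) and Psat1 (-0.61, adjusted p 0.0512) lay lower on slide 1 without passing, and their arrays did not overlap either. In all, 6 of the 10 genes did not overlap between the slides, where 31.4% of all genes did not. Ddit3 (0.38), Ddit4 (0.24), Trib3 (-0.14) and Chac1 (-0.02) overlapped and did not pass. Asns was lower than in every low-fat array on both slides, at -1.60 to -1.57 on slide 1 and -1.48 to -0.84 on slide 2, against -0.75 to 0.24 on the low-fat slides.

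The probes of a gene did not always follow the slide in the same direction. The brighter Psat1 probe differed by -0.61 and the dimmer by 0.43 (limma adjusted p 0.243). The brighter Atf4 probe differed by -0.63 and the dimmer by 0.45 (limma adjusted p 0.133). For Phgdh both probes lay above 0, at 0.86 and 0.48 (limma adjusted p 0.0945 for the latter).

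**Figure D3:**
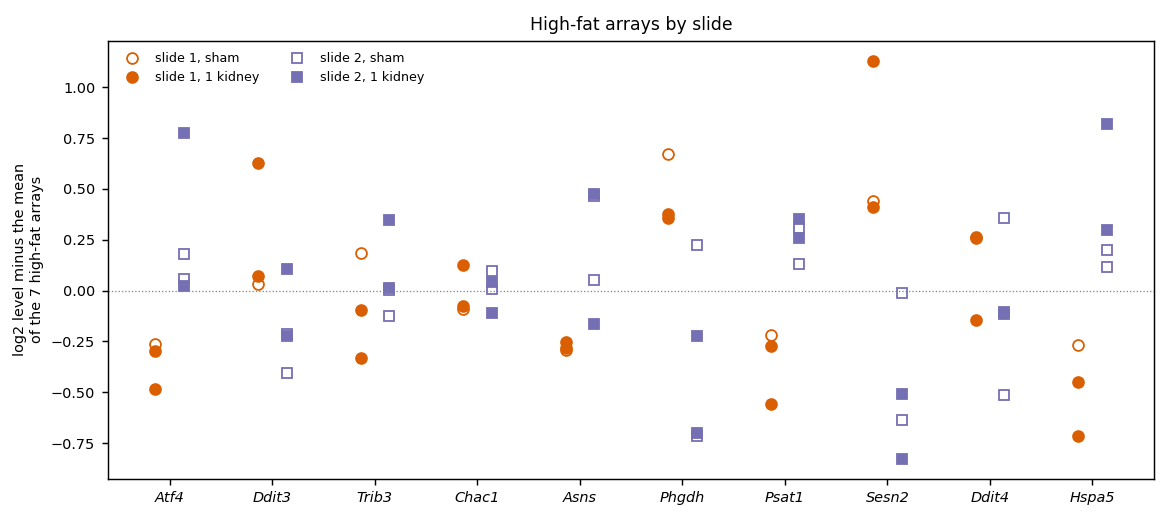
Log2 level of each high-fat array minus the mean of the 7 high-fat arrays (y axis) for the 10 genes (x axis), with circles for slide 1, squares for slide 2, open symbols for sham mice and filled symbols for mice with 1 kidney. Sesn2 and Phgdh lie higher on slide 1, and Atf4, Hspa5, Asns and Psat1 lie lower, with no overlap between the slides.

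Over the 15 arrays, with each group's mean subtracted, Atf4 and Asns varied together (Pearson r = 0.77) and Psat1 and Sesn2 varied in opposite directions (r = -0.86). With the mean of each slide within its group also subtracted, these were 0.69 and -0.75. Atf4 and Hspa5 had an r of 0.70 before and 0.28 after the slide means were subtracted, and Atf4 and Sesn2 -0.79 and -0.47. All values of an array share its RNA, its labelling and its scaling, so these are descriptions of 15 arrays. Each r used the brightest probe of a gene. The dimmer probes of Atf4 and Psat1, which differed between the high-fat slides in the other direction, were left out, so these r may not hold for them.

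The genes whose levels were most like a member's were taken by Pearson r over the 15 arrays among 13497 genes well above background on all of them. For Asns these were L3mbtl3 (r = 0.96, and 0.86 with group means subtracted), Mul1 (0.95 and 0.89) and Tex10 (0.95 and 0.86). For Hspa5 they were Zbtb8os (0.91 and 0.93), Manf (0.91 and 0.92), which encodes a secreted protein of the ER stress response, and Tmem41b (0.89 and 0.89). For Ddit3 they were Edc3 (0.83 and 0.78), Borcs5 (0.79 and 0.69) and Rrbp1 (0.79 and 0.81), and for Ddit4 Daxx (0.82 and 0.83), Arrb2 (0.79 and 0.81) and Ctdsp2 (0.79 and 0.87). The arrays of the 2 diets lie apart in Asns, so its pooled r also carries the difference between diets. Slide means were not subtracted for any of these r, and Hspa5 differed by -0.85 between the high-fat slides. The part of slide in these r was not tested.

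Upstream of the 10 genes stand the kinases that phosphorylate eIF2 and the phosphatase subunits that reverse it. Of 7 genes listed for this step, among them Eif2s1, which encodes the phosphorylated subunit of eIF2, 1 passed as lower in both diet comparisons, Eif2ak4, which encodes GCN2, the kinase that senses uncharged tRNA. It differed by -0.60 (SE 0.15, limma adjusted p 0.0202) in sham mice and by -0.52 (SE 0.14, limma adjusted p 0.0248) in mice with 1 kidney. Eif2ak3 (PERK), the kinase of the ER, gave -0.04 and -0.15 and did not pass. The medians of the 7 genes were -0.04 and -0.03. Beside this list and those below, 7.41% of all genes passed as lower and 6.48% as higher in sham mice. In mice with 1 kidney the shares were 6.52% and 7.67%, and 4.14% of all genes passed as lower in both.

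Of 20 cytosolic aminoacyl-tRNA synthetases, which charge tRNA and include several ATF4 targets, 3 passed as lower and 0 as higher in sham mice, where 7.41% and 6.48% of all genes did. These were Yars (-0.87, adjusted p 0.0089), Cars (-0.86, adjusted p 0.00601) and Gars (-0.65, adjusted p 0.0116). Yars was dim, at means of -4.69 in low-fat and -5.56 in high-fat sham mice. Among mice with 1 kidney 3 passed as lower, Cars (-0.56), Gars (-0.50) and Kars (-0.43), and 2 as higher, Eprs (1.02) and Mars1 (0.37, named after its values were seen). The list's median was -0.24 in sham mice and -0.12 in mice with 1 kidney. With slide as a random block none of these calls was kept (limma adjusted p 0.157 to 0.163 in sham mice and 0.173 to 0.392 in mice with 1 kidney).

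Of 14 further transcription factors and targets of the integrated stress response measured (Fgf21 had no measured probe), 1 passed as lower in sham mice and 2 in mice with 1 kidney, and none as higher. Atf5, a relative of Atf4 that the same signal raises in translation, gave -0.81 (limma adjusted p 0.00316) and -0.50 (limma adjusted p 0.0195). Bbc3 (PUMA), which promotes apoptosis, gave -0.47 (limma adjusted p 0.0358) in mice with 1 kidney. The medians of this list were 0.11 and 0.17.

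Among 27 ER chaperones and genes of the unfolded protein response, Ern1 alone passed, as lower in both diet comparisons, as did 4.14% of all genes. Ern1 encodes IRE1, the ER stress sensor that splices Xbp1. It differed by -1.18 (SE 0.17, limma adjusted p 0.00192) in sham mice and by -1.04 (SE 0.16, limma adjusted p 0.00164) in mice with 1 kidney. In sham mice 10 of the 27 lay above 0 and 17 below, with a median of -0.07, and in mice with 1 kidney the counts were the same with a median of -0.09.

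Of 14 measured genes of serine, one-carbon, asparagine and proline synthesis (Pycr1 was not measured), Mthfd1l, which makes formate in mitochondria, was lower in both comparisons, by -0.77 and -0.68 (limma adjusted p 0.0116 and 0.0121). Shmt2, the mitochondrial enzyme that splits serine to glycine, and Gpt2, the mitochondrial alanine aminotransferase, passed as higher in mice with 1 kidney, both by 0.59 (limma adjusted p 0.0378 and 0.00784). Of 13 measured amino acid transporters (Slc7a11 was not measured), Slc7a5, which carries large neutral amino acids, passed as higher in sham mice, by 0.50 (limma adjusted p 0.0443), and 0 passed in mice with 1 kidney, where 14.2% of all genes did. Slc7a5 was dim, at means of -3.77 in low-fat and -3.27 in high-fat sham mice.

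Of 15 genes of mTORC1 and nutrient sensing, Mtor was higher in both comparisons, by 0.76 and 0.56 (limma adjusted p 0.0151 and 0.0377), and Eif4ebp1, the translation repressor that mTORC1 inactivates and an ATF4 target, was lower in both, by -0.57 and -0.68 (limma adjusted p 0.0132 and 0.00324). Nprl2, of a complex that inhibits mTORC1 when amino acids are short, passed as higher in sham mice (0.49, limma adjusted p 0.0228). A list of 10 genes of the glucocorticoid response, to which Ddit4 also belongs, held the receptor gene Nr3c1 beside induced genes. Of these 10, Fkbp5 (-1.29, limma adjusted p 0.0326) and Klf9 (-0.44, limma adjusted p 0.0391) passed as lower in sham mice. Among mice with 1 kidney Nr3c1, the receptor itself, passed as lower (-0.41, limma adjusted p 0.0463) and Per1, a clock gene, as higher (0.81, limma adjusted p 0.0417).

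Over the 8 lists, 13 of 120 measured genes (10.8%) passed in sham mice and 16 (13.3%) in mice with 1 kidney, where 13.9% and 14.2% of all genes passed in either direction. The lists' share was thus no higher than that of the array as a whole. With slide as a fixed block within the high-fat groups, 13 of the 13 and 16 of the 16 passed. That block adjusts neither low-fat slides nor scan day. When slide entered limma as a random term, 0 of the 13 and 0 of the 16 passed, at adjusted p of 0.111 to 0.344 and 0.131 to 0.43, and all kept their direction. Without the slide 1 arrays 12 of the 13 and 6 of the 16 still passed, and without the slide 2 arrays 10 of the 13 and 16 of the 16, the lone high-fat sham array then being taken to vary like the other groups. None passed in either surgery comparison or in the interaction with limma.

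**Figure D4:**
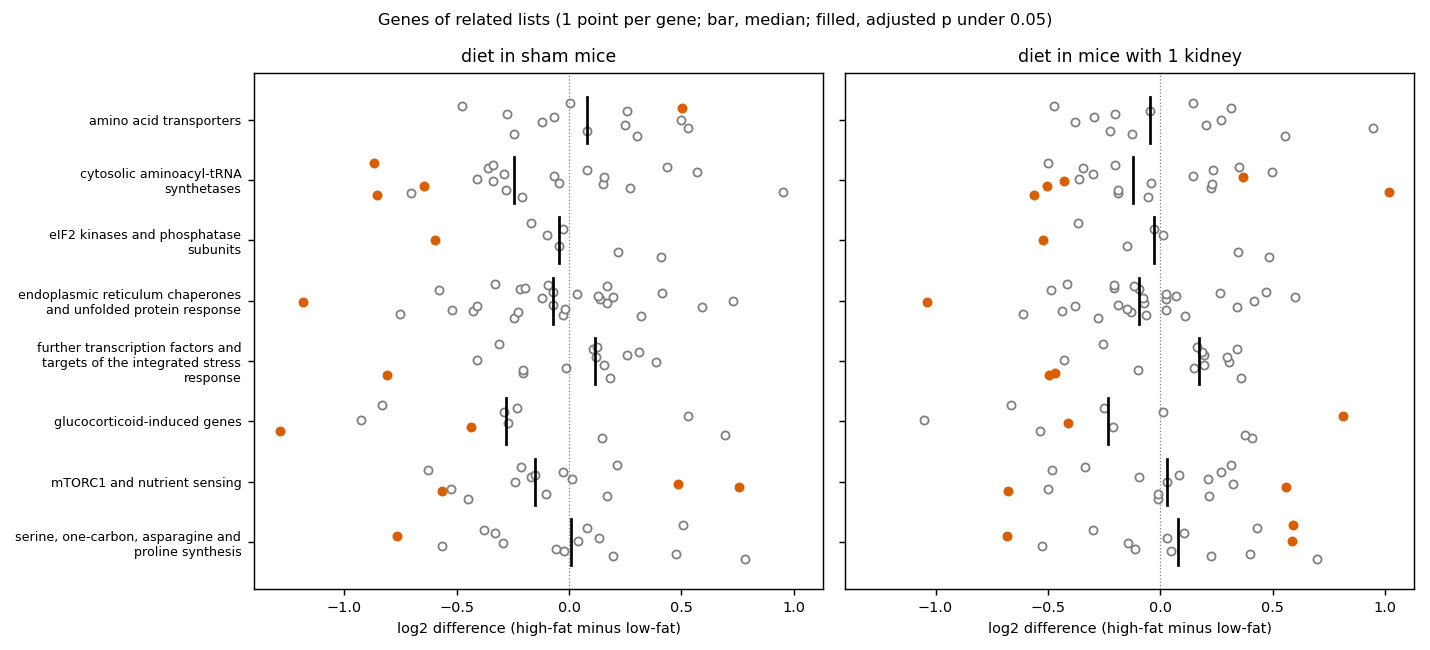
Log2 differences, high-fat minus low-fat (x axis), of the genes of the 8 related lists (y axis) in sham mice (left) and in mice with 1 kidney (right), with 1 point per gene, a bar for the list's median and filled points for genes with an adjusted p under 0.05. Ern1 lies lowest among the ER genes, at -1.18 and -1.04, and the list medians lie between -0.28 and 0.17.

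Some markers of other cell types passed between the diets beside these results. The log2 of the summed linear levels of 6 lymphocyte markers was 0.71 to 0.96 on low-fat arrays and 1.12 to 1.99 on high-fat arrays. The brightest markers weigh most in such a sum, and 3 of the 6 were well above background on all arrays. Of the 6, with median differences of 0.89 and 1.19, 2 passed as higher in sham mice and 4 in mice with 1 kidney. Over all genes 6.48% and 7.67% passed as higher in these comparisons, and 7.41% and 6.52% as lower. The log2 of the summed linear levels was taken likewise for 8 adipocyte markers, 6 of them well above background on all arrays. It was 4.72 to 5.45 in low-fat sham mice and 3.96 to 4.73 in low-fat mice with 1 kidney. On the high-fat diet it was 3.44 to 4.44 in sham mice and 3.44 to 4.36 in mice with 1 kidney. The median difference of the adipocyte markers was -2.18 in sham mice and 0.15 in mice with 1 kidney. Of these 8, 2 passed as lower in sham mice, and 1 as higher and 1 as lower in mice with 1 kidney. Of 8 liver markers, with median differences of -1.11 and -0.89, 1 passed as higher in sham mice, and 1 as higher and 2 as lower in mice with 1 kidney. Of 3 measured adrenal markers 1 passed as higher and 1 as lower in sham mice, and of 4 measured blood markers 1 passed as lower in mice with 1 kidney. None of 3 measured macrophage markers and 10 kidney markers passed in either diet comparison with limma. The part of these markers in the Asns difference was not tested.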

How the data were processed

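From each kidney 100 ng of RNA was amplified with a Cy3 label and measured on 1 of 15 1-colour Agilent arrays, per the labels. The submitters' processing notes name Agilent Feature Extraction 10.7. The deposited intensity values are those of the scanner software, not normalized between arrays. A table of values deposited by the authors holds these intensities rounded (0.995 to 1.005 times the processed signal).

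The log2 of the processed signal was taken, and the 75th percentile of all non-control probes was subtracted array by array. Outlier spots (74 to 273 per array) were left out and no spot was saturated. A probe needed a signal well above background on 3 or more arrays; probes were named through RefSeq accessions in a gene table of GRCm38.p6 (27234 of 39429 probes) and the brightest stood for its gene. Groups were compared with limma 3.58.1 (R 4.3.3, statmod 1.5.0), 1 mean per group over 15 arrays, two-sided, with Benjamini-Hochberg adjustment. The number of arrays limits the precision. The fit was tested on simulated arrays without a slide or scan-day effect, so that test cannot speak to those effects. In the real arrays the consensus correlation within a slide was 0.41. In lists, older symbols were updated through synonyms (Mars to Mars1).

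All 10 genes are named in both diet comparisons, with up to 4 genes per related list in each diet comparison it passed (Mars1 was added after its values were seen) and the 3 genes most like each of 4 members. For surgery on the low-fat diet and the interaction, counts and only some of the 10 genes are given. The members and lists were chosen with earlier results of these data known. The alternatives changed background correction, normalization, filter, probe choice, blocks, weights, variance prior, threshold and the arrays used. Slide as a fixed block was fitted within the high-fat groups only, so diet and scan day stay together there. Normexp used median spot signals.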

Additional observations from a re-analysis of the deposited data

Results flagged for a closer look

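Within groups of 4 arrays, 4 levels stood apart from the other 3 of their group by Dixon's criterion at the 95% level, of 30 groups looked at, and chance marks about 1 in 20 groups. Trib3 in low-fat sham mice was lowest on array 4, at -2.50, with the others between -2.02 and -1.94. Hspa5 in low-fat sham mice was highest on the same array, at 5.67, with the others between 4.75 and 4.87. Asns in high-fat mice with 1 kidney was highest on array 3, at -0.84, with the others between -1.59 and -1.48. Without that array the Asns difference between diets in mice with 1 kidney was -0.96 (limma adjusted p 0.00577), against -0.79 with it. Ddit4 in high-fat mice with 1 kidney was highest on array 1, at 2.12, with the others between 1.71 and 1.75.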

How the results depend on the processing

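Over 32 alternatives, the differences of the 10 genes gave 1570 values. Of these 1402 kept direction and side of the threshold, 145 changed sign without passing, all of differences that had not passed as reported (the largest of them -0.35 as reported, Phgdh in sham mice), 9 lost a call (all Asns), 14 gained one, and 0 passed in the opposite direction. The Asns difference ranged from -1.48 to -0.93 in sham mice and from -0.999 to -0.57 in mice with 1 kidney.

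In sham mice, the number of the 10 genes that passed (1 as reported) was 0 with slide as a random block and 2 with array weights, which added Trib3. In mice with 1 kidney (1 as reported) it was 0 with normexp, with slide as a random block and without the slide 1 arrays. It was 2 with the mean of a gene's probes, with slide as a fixed block within the high-fat groups and at a threshold of 0.1, each time adding Psat1. It was 5 with array weights, which added Trib3, Ddit3, Psat1 and Sesn2, and 5 without the slide 2 arrays, which added Atf4, Ddit3, Psat1 and Sesn2. Leaving out each array in turn gave 0 to 2 there.

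Over all genes in sham mice (2230 passed), 161 passed with normexp, 4850 with no filter on dim probes, 4474 with slide as a fixed block, 14 with slide as a random block, 1181 with only the groups compared, 4525 with array weights, 3498 at a threshold of 0.1, 3660 without the slide 1 arrays, 4838 without the slide 2 arrays, and 1210 to 2718 leaving out each array. In mice with 1 kidney (2278), 316 passed with normexp, 3596 with no filter, 4101 with slide as a fixed block, 26 with slide as a random block, 7673 with array weights, 3462 at a threshold of 0.1, 7712 without the slide 2 arrays, and 1297 to 3306 leaving out each array. With normexp the calls split into 50 higher and 111 lower in sham mice, and 120 and 196 in mice with 1 kidney, against 1040 and 1190, and 1231 and 1047, as reported, and the median over all genes in sham mice was -0.11.

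For surgery on the low-fat diet (1 gene), 2 passed with quantile normalization, 104 with array weights, and 0 with normexp, with probes well above background on all arrays, with slide as a random block, with only the groups compared and with the variance prior with trend and robust, and 0 to 1 leaving out each array. For surgery on the high-fat diet (0 genes), 1 passed with cyclic loess, 1 at a threshold of 0.1, 178 without the slide 1 arrays, 3 without the slide 2 arrays, and 0 to 1 leaving out each array. For the interaction (0 genes), 2 passed without the slide 2 arrays and 0 to 1 leaving out each array.

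The replicate numbers that groups share were not taken to pair the arrays. Over 21 same-numbered pairs the deviations from group means had a median correlation of -0.01, and 5 pairs were over 0.1. Over 63 pairs with different numbers the median was 0.02, and 13 were over 0.1. Slide also enters these deviations, so the correlations cannot settle whether the mice were paired. With the replicate number as a block, the number of the 10 genes that passed was the same in each comparison, and 0 genes passed for surgery on the low-fat diet. Normexp on median signals, the 2 settings without a slide's arrays and the comparison of slides were chosen after seeing the data. Probes of all 10 genes were well above background on every array.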
